A study of Rattus norvegicus with 18 samples.

Results

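Iron handling was followed through 10 genes: the transferrin receptor Tfrc, the iron importer Slc11a2, the iron exporter Slc40a1, the ferritin subunits Fth1 and Ftl1, the iron regulatory proteins Aco1 and Ireb2, haem oxygenase Hmox1 and the ferroxidases Cp and Heph. They were chosen by name for their known roles, by a selection made with earlier results of these data known. Of the 10, 9 matched a gene row of the deposited table of 18420 gene rows, and Slc40a1 is not analysed here. All 9 passed the filter on low values, a normalised read count of at least 10 in at least 6 libraries, as did 13988 genes in all.

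The tissue was the kidney cortex. The rats were of the ZDF (Zucker diabetic fatty) strain; animals with 2 copies of fa, a leptin receptor allele, become obese and develop type 2 diabetes. The RYGB group was ZDF fa/fa, labelled diabetic, and had undergone Roux-en-Y gastric bypass, surgery in which food bypasses most of the stomach and the duodenum. The disease group was ZDF fa/fa and diabetic, without the bypass. The healthy control group was lean, non-diabetic ZDF fa/+, and so carried 1 fa allele. Each group had 6 libraries. Age, sex, diet, time after the operation and any sham operation are not given in the labels used here.

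Iron circulates bound to transferrin and enters cells when the transferrin receptor takes it up. Slc11a2 (DMT1) moves ferrous iron out of endosomes and, in the kidney tubule, also takes part in recovering iron from the filtrate. Iron that is not used is stored in ferritin. The duodenum, which the bypass excludes, is the main site of dietary iron uptake. When cells are short of iron, the iron regulatory proteins bind stem-loops called iron-responsive elements. Binding stabilises the Tfrc messenger and a form of the Slc11a2 messenger, while it blocks translation of ferritin without requiring less ferritin messenger. Haem oxygenase opens the haem ring and releases its iron. Ceruloplasmin (Cp) and hephaestin (Heph) are copper enzymes that oxidise ferrous iron so that transferrin can bind it.

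The 6 RYGB libraries held 12470525 to 42713246 reads in genes, the disease libraries 8157977 to 37142922 and the healthy control libraries 8116638 to 34169198. Proximal tubule markers, which define most of the cortex, summed to 301394 to 442893 normalised reads in RYGB, 200524 to 391519 in disease and 285653 to 526558 in healthy control, with 12 of 14 markers matched and none at 0. By mean Spearman's rho across genes, RYGB replicate 3, disease replicates 2 to 6 and healthy control replicate 4 were nearer to another group than to their own (0.975 to 0.983 with the nearest other group, 0.968 to 0.980 with their own). The groups thus did not separate cleanly over all genes, and each call of the 9 genes was repeated without each library in turn. Calls against healthy control are also given without its replicate 4. All levels below are normalised read counts, with mean ± SD over 6 libraries, and changes are log2 fold changes ± SE. The 3 comparisons share groups and are not independent of each other. Whether every library came from its own rat is not stated in the labels, and p-values then describe only the variation among these libraries, which may be technical. In whole cortex, fewer cells of a type and less RNA per cell cannot be told apart.

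After RYGB, 5 of the 9 genes passed the test against disease. Tfrc and Slc11a2 rose, and Hmox1, Cp and Heph fell. Across all genes tested 3.95% passed in that comparison, 1.84% upward and 2.1% downward. Against healthy control 4 of the 9 passed, Tfrc and Aco1 upward and Hmox1 and Heph downward, where 4.44% of all genes passed, 2.46% upward and 1.98% downward. Between disease and healthy control 0 of the 9 passed with limma, edgeR or DESeq2, 1 had an unadjusted limma p below 0.05, and 1.61% of all genes passed, 0.579% upward and 1.03% downward. The median log2 fold change of the 9 after RYGB was -0.196 relative to disease (-0.000866 over all genes tested) and -0.185 relative to healthy control (-0.0128 over all genes). It was 0.0119 for disease against healthy control (0.00158 over all genes). Leaving out 1 library changed the first count to 1 (RYGB replicate 4 or disease replicate 2), 3 (RYGB replicates 2, 5 or 6 or disease replicates 1 or 6) or 4 (RYGB replicate 1). The second count became 2 without any RYGB library but replicate 3 or any healthy control library but replicate 4, and 5 without healthy control replicate 4.

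**Figure D1:**
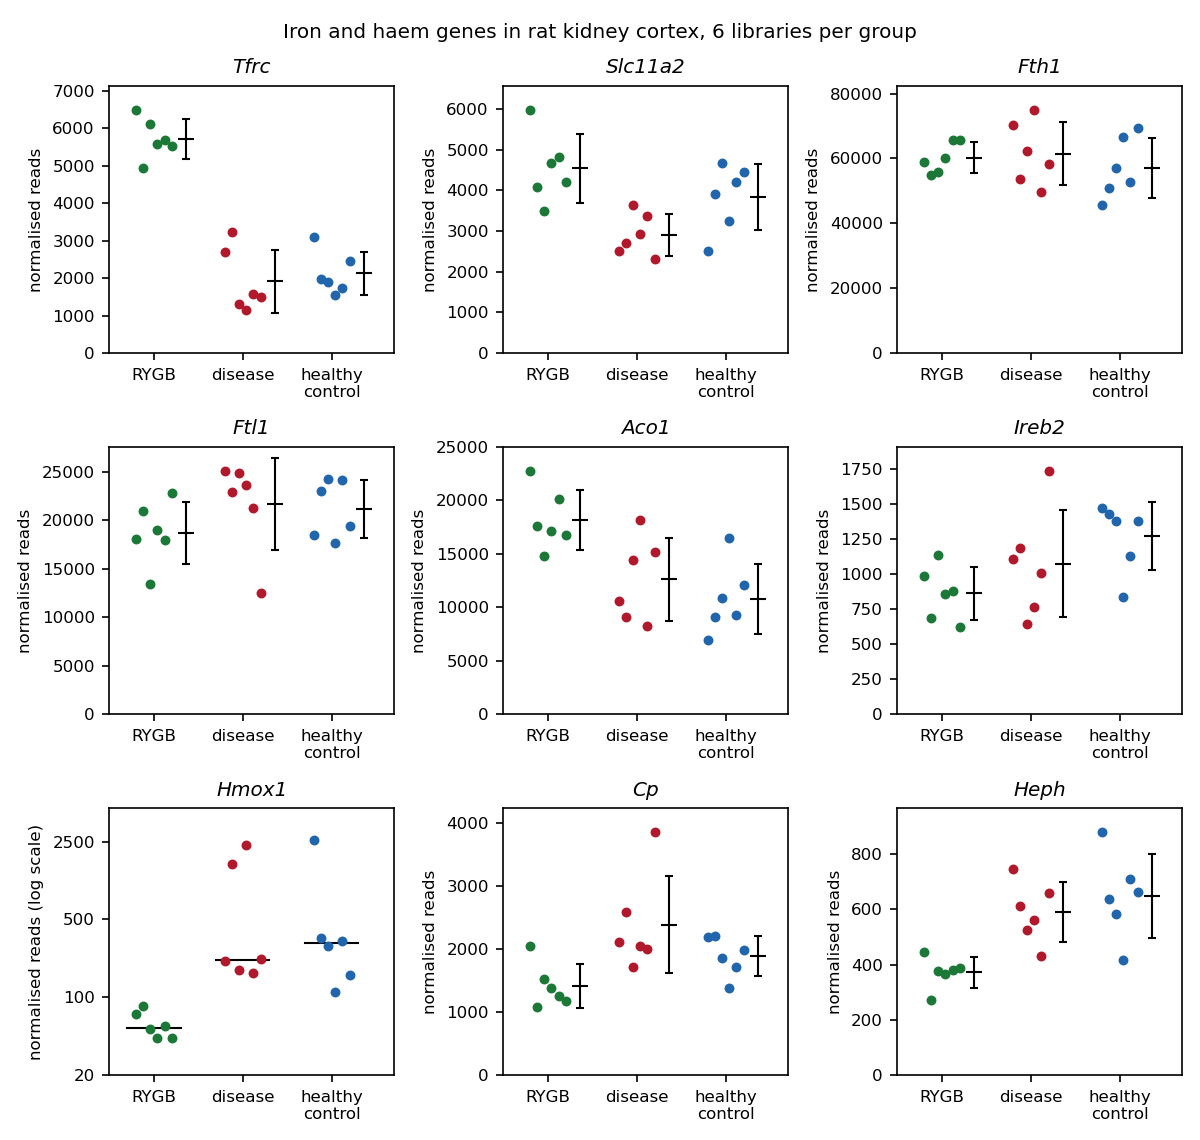
Normalised reads (vertical axes; linear from 0, except Hmox1 on a log scale) of the 9 genes in RYGB, disease and healthy control. Points are libraries, bars next to them mark the mean ± SD, and for Hmox1 a line marks the median. All RYGB libraries lie above the others in Tfrc and below them in Hmox1, and the groups overlap in both ferritin genes.

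Tfrc had the clearest separation of the uptake genes. It ranged from 4940 to 6485 normalised reads in RYGB (median 5638), 1157 to 3227 in disease (median 1542) and 1563 to 3110 in healthy control (median 1938). Every RYGB library lay above every disease and every healthy control library. The lowest RYGB library, replicate 2, was still above disease replicate 2, the highest library outside RYGB. The mean was 5725 ± 531 in RYGB and 1913 ± 839 in disease, a ratio of 2.99 (1.68 ± 0.21, limma adjusted p = 0.000334). Against the healthy control mean of 2125 ± 569 the ratio was 2.69 (1.46 ± 0.21, limma adjusted p = 0.000768), and without healthy control replicate 4 the change was 1.38 (0.000736). Tfrc passed under each of the 28 alternatives in both comparisons, with adjusted p up to 0.00129 against disease and 0.00325 against healthy control. Between disease and healthy control the difference was -0.22, with a 95% interval from -0.66 to 0.23.

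Slc11a2 ranged from 3487 to 5974 normalised reads in RYGB (median 4440), 2312 to 3649 in disease (median 2824) and 2514 to 4666 in healthy control (median 4057). RYGB and disease overlapped by a single RYGB library, replicate 3, which lay below disease replicate 3. Slc11a2 rose in RYGB against disease, 4542 ± 845 against 2913 ± 515 (0.64 ± 0.16, limma adjusted p = 0.0269). It did not pass without RYGB replicates 1, 4 or 5 or disease replicates 1, 2 or 6, where the log2 fold change stayed between 0.56 and 0.63 and the adjusted p between 0.0584 and 0.0742. Against healthy control (3832 ± 814) the difference was 0.26, with a 95% interval from -0.07 to 0.58. Disease against healthy control gave -0.38 (limma adjusted p = 0.334, unadjusted p = 0.0237), and healthy control replicates 1 and 4 lay within the disease range.

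Markers of tubule segments were examined beside Slc11a2. Of 12 tested proximal tubule markers 9 had a positive log2 fold change for RYGB against disease (median 0.64) and 1 passed, Miox. Of 5 tested markers of the thick ascending limb all were positive (median 0.65) and 3 rose. That limb's markers summed to 47094 to 121463 normalised reads in RYGB, 24809 to 73790 in disease and 76103 to 100670 in healthy control. None was at 0 in a whole group. The part of these segments in the Slc11a2 values was not tested.

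The promoters of Tfrc and Slc11a2 are shown because both rose against disease. RefSeq windows of the GRCr8 assembly, which is not the build the reads were counted on, were found for 7 of the 10 genes, with a pair of alternative starts for Slc11a2. The 250 bases before each start are given, 5′ to 3′ on the transcribed strand. Capitals mark ACGTG or GCGTG on either strand, the core letters of the element that hypoxia-inducible factors bind.
Tfrc, chr11:81690319-81690568, minus strand: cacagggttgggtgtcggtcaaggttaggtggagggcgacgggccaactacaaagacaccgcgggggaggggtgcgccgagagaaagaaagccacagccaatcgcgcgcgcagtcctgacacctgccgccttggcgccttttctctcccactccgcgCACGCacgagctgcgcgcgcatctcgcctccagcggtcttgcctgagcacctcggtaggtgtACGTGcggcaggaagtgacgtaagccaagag
Slc11a2 upstream start, chr7:133418940-133419189, minus strand: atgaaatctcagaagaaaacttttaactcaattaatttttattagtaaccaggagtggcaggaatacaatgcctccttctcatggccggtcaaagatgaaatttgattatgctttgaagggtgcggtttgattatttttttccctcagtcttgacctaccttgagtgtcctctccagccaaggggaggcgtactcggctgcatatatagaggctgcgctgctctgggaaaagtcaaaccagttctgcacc
Slc11a2 downstream start, chr7:133417789-133418038, minus strand: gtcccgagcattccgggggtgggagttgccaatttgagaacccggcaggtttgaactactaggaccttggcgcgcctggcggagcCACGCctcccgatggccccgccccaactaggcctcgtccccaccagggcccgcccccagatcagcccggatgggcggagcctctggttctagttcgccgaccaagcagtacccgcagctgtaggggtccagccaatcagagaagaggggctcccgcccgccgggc
The Tfrc window held ACGTG at -31 to -27 from the start and GCGTG on the opposite strand at -93 to -89. The downstream Slc11a2 window held GCGTG on the opposite strand at -165 to -161, and the upstream window held neither. Of all 33469 windows 16.6% held ACGTG and 25.9% GCGTG, so the letters are common. Of the 7 genes with a window, GCGTG was in those of 4, Aco1 and Heph besides Tfrc and Slc11a2, and ACGTG in that of Tfrc.

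The ferritin genes, which store the iron, did not pass in any comparison. Fth1, the heavy subunit with the ferroxidase centre, ranged from 54844 to 65797 normalised reads in RYGB (median 59449), 49597 to 74857 in disease (median 60257) and 45633 to 69458 in healthy control (median 54891). All RYGB libraries lay within the range of both other groups. The log2 fold change was -0.02 against disease (95% interval -0.32 to 0.28) and 0.09 against healthy control (-0.22 to 0.39), so these intervals leave out changes as large as that of Tfrc. Ftl1, the light subunit that helps form the iron core, averaged 18726 ± 3185 in RYGB, 21735 ± 4748 in disease and 21182 ± 2983 in healthy control. Its log2 fold change was -0.20 against disease (-0.55 to 0.15) and -0.18 against healthy control (-0.53 to 0.17). Disease replicate 6 was low in Ftl1 with 12468, where the other disease libraries had 21289 or more.

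Counts of both ferritin genes are uncertain. The RefSeq gene table names 5 pseudogenes of Fth1 and 14 of Ftl1. It also names protein-coding genes as like copies, 1 of Fth1 and 6 of Ftl1. Reads that aligned to several places were kept in a row of their own. That row held 15.1 to 18.13% of all counted reads in RYGB, 13.46 to 16.01% in disease and 14.82 to 16.4% in healthy control. Its part in the ferritin values was not tested.

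The ratio of Tfrc to Fth1 within a library does not depend on the size factor. It was 9.56 ± 1.16 Tfrc reads per 100 Fth1 reads in RYGB, 3.21 ± 1.59 in disease and 3.87 ± 1.53 in healthy control. The RYGB libraries ran from 8.41 to 11, above the highest disease value of 6.01 and the highest healthy control value of 6.82. Reads per gene are not corrected for length, so the ratio compares libraries and not molecules. The ratio of Fth1 to Ftl1 was 3.28 ± 0.546 in RYGB, 2.97 ± 0.895 in disease and 2.76 ± 0.717 in healthy control, with overlapping ranges.

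Of the iron regulatory proteins, 1 passed in a single comparison. Aco1 encodes the protein that is a cytosolic aconitase when it holds an iron-sulphur cluster and an RNA-binding regulator when it does not. It ranged from 14795 to 22732 normalised reads in RYGB (median 17351), 8246 to 18136 in disease (median 12508) and 6932 to 16490 in healthy control (median 10060). Aco1 rose in RYGB against healthy control, 18195 ± 2815 against 10777 ± 3301 (0.79 ± 0.20, limma adjusted p = 0.0353). Healthy control replicate 4 was the highest of its group and the only one within the RYGB range. Without it the change was 0.93 (adjusted p = 0.00583). Aco1 did not pass without RYGB replicates 1, 2, 4, 5 or 6 or healthy control replicates 1, 2, 3, 5 or 6 (adjusted p 0.053 to 0.0992). Against disease (12616 ± 3903) the difference was 0.57 (95% interval 0.15 to 1.00, limma adjusted p = 0.119).

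Ireb2 encodes the other iron regulatory protein, which is removed by degradation when iron is plentiful. It had 861.7 ± 190 normalised reads in RYGB, 1074 ± 382 in disease and 1271 ± 243 in healthy control, and did not pass in any comparison. Its log2 fold change was -0.56 for RYGB against healthy control (95% interval -0.99 to -0.14, limma adjusted p = 0.101). Without healthy control replicate 4, the lowest of its group with 839, it was -0.68 and passed (adjusted p = 0.0372). It also passed with the compared groups fitted alone (0.0444).

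Hmox1, the inducible haem oxygenase, was low in every RYGB library. It ranged from 42.66 to 84.06 normalised reads in RYGB (median 53.13), 164.9 to 2332 in disease (median 215.8) and 110.4 to 2605 in healthy control (median 306). No RYGB library reached the lowest library of either other group. Disease replicates 2 and 4 and healthy control replicate 1, with 1558, 2332 and 2605, lay far above the others of their groups, which had 164.9 to 222.3 in disease and 110.4 to 337 in healthy control. Groups without overlap were found for 2 of the 9 genes, Tfrc and Hmox1, in both RYGB comparisons, where 2.6% of all genes had no overlap against disease and 3.22% against healthy control. Disease and healthy control overlapped in all 9, and 1.24% of all genes did not. Hmox1 fell in RYGB against disease (-2.86 ± 0.69, limma adjusted p = 0.0252) and against healthy control (-2.57 ± 0.69, limma adjusted p = 0.04). The first did not pass without disease replicate 2 (-2.48, adjusted p = 0.0655) or RYGB replicates 4 or 6 (0.056 and 0.0526). The second was -1.98 without healthy control replicate 1 (adjusted p = 0.1) and -2.89 without healthy control replicate 4 (0.0148). It also did not pass without RYGB replicates 1, 2, 4, 5 or 6 or healthy control replicates 2, 3, 5 or 6 (0.053 to 0.0892). Disease against healthy control gave 0.29 with a wide 95% interval from -1.15 to 1.73.

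Macrophages also carry haem oxygenase, and their markers were set beside it. The 12 macrophage markers in the table, led by Lyz2 and Mertk, summed to 9479 to 12138 normalised reads in RYGB, 10011 to 12714 in disease and 7364 to 9229 in healthy control, and none was at 0 in a whole group. Of 11 tested, 1 fell against disease, the mannose receptor Mrc1 (60.34 ± 5.57 in RYGB, 220.6 ± 95.1 in disease; -1.75 ± 0.22, limma adjusted p = 0.000334). Against healthy control Mrc1 also fell (132.9 ± 29.6 in healthy control; -1.10 ± 0.22, 0.0091) and the lysozyme Lyz2 rose (0.56 ± 0.11, 0.00699). The part of macrophages in the Hmox1 values was not tested.

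Tubular injury markers also moved with Hmox1 against disease. Of 11 tested, 4 fell (Spp1, Clu, Havcr1 and Vim) and 1 rose (Krt19) in RYGB against disease. Against healthy control 0 fell and 2 rose, while Hmox1 fell. In disease against healthy control 6 rose and 1 fell, while Hmox1 did not pass. Havcr1, the kidney injury molecule of the proximal tubule, averaged 42.34 ± 30.3 normalised reads in RYGB, 1348 ± 963 in disease and 85.35 ± 104 in healthy control. The 12 markers in the table summed to 18292 to 21066 in RYGB, 27017 to 52737 in disease and 13610 to 21926 in healthy control, and none was at 0 in a whole group. Their part in the Hmox1 values was not tested.

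The ferroxidases were both lower after RYGB. Ceruloplasmin Cp ranged from 1076 to 2049 normalised reads in RYGB (median 1316), 1711 to 3849 in disease (median 2078) and 1374 to 2197 in healthy control (median 1922). RYGB replicate 1 was the only RYGB library within the disease range. Cp fell against disease, 1409 ± 349 against 2383 ± 772 (-0.74 ± 0.18, limma adjusted p = 0.0267). The call was lost without RYGB replicates 2, 4, 5 or 6 or disease replicate 2 (0.0539 to 0.0633) and with the compared groups fitted alone (0.0506). Against healthy control (1887 ± 313) the difference was -0.44, with a 95% interval from -0.81 to -0.06 (limma adjusted p = 0.138), and -0.52 without healthy control replicate 4 (0.0675).

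Hephaestin Heph ranged from 270.2 to 446.5 normalised reads in RYGB (median 379.4), 431.6 to 744.9 in disease (median 586.9) and 417 to 878.6 in healthy control (median 649.9). RYGB replicate 1 overlapped disease replicate 5 and healthy control replicate 4, and the other RYGB libraries lay below both groups. Heph fell against healthy control, 371.3 ± 57.1 against 648.3 ± 151 (-0.78 ± 0.16, limma adjusted p = 0.0113), under each of 28 alternatives (adjusted p up to 0.0326). Without healthy control replicate 4 the change was -0.90 (adjusted p = 0.000838). Heph also fell against disease, 371.3 ± 57.1 against 588.8 ± 109 (-0.66 ± 0.16, 0.0275), but not without RYGB replicates 2 or 4 or disease replicates 1, 2 or 6 (0.0555 to 0.0734).

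Markers of interstitial fibroblasts and mural cells moved with the ferroxidases. Of 9 tested, 4 fell and 1 rose in RYGB against disease, and 3 fell against healthy control. Decorin Dcn, a matrix proteoglycan, had 1154 ± 172 normalised reads in RYGB, 1579 ± 195 in disease and 1751 ± 200 in healthy control. The 9 markers, led by Col3a1 and Tagln, summed to 7614 to 13071 in RYGB, 11548 to 15113 in disease and 11326 to 15253 in healthy control, and none was at 0 in a whole group. Their part in the Cp and Heph values was not tested.

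**Figure D2:**
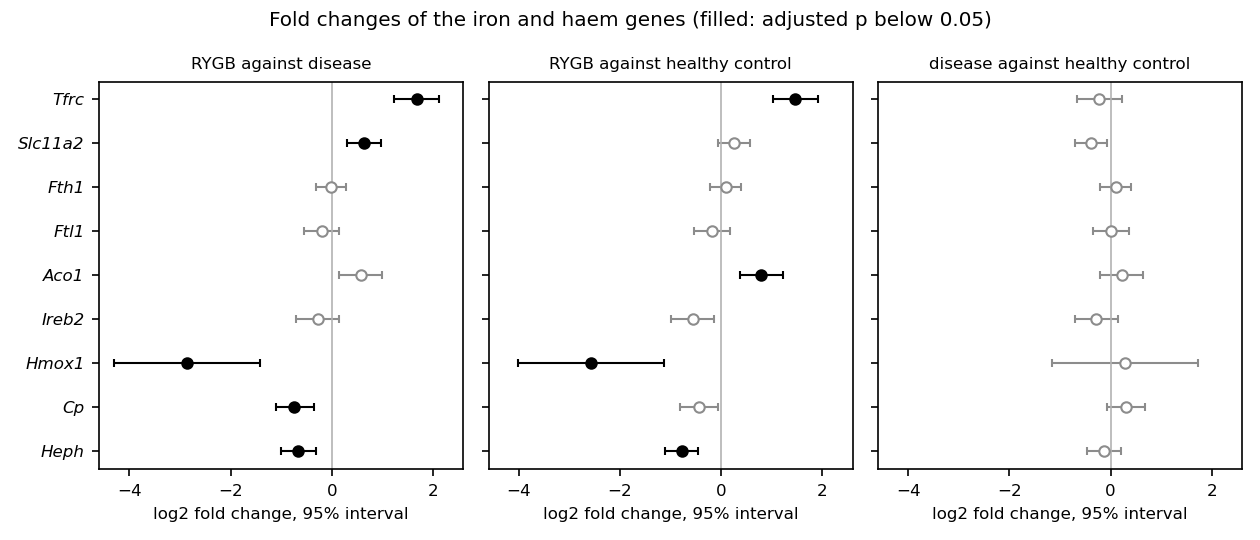
Log2 fold changes (horizontal axis, limma estimate with 95% interval) of the 9 genes in the 3 comparisons; filled points have an adjusted p below 0.05. Tfrc lies at 1.68 and 1.46 and Hmox1 at -2.86 and -2.57 in the RYGB comparisons, and no point is filled in disease against healthy control.

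Tfrc is abundant in red cell precursors and in dividing cells, so both were examined. Of 12 erythroid markers 6 matched the table, and the globins are not analysed here. Ahsp, which chaperones alpha globin, rose in RYGB against disease and against healthy control, with 26.88 ± 11.8 normalised reads in RYGB, 6.42 ± 3.62 in disease and 8.33 ± 4.95 in healthy control. The changes were 1.94 ± 0.38 (limma adjusted p = 0.00624) and 1.63 ± 0.38 (0.0214). Ahsp met the filter on low values only through RYGB. Outside RYGB only disease replicate 2 (12.74) and healthy control replicate 1 (17.53) reached 10. Its p-values are thus not independent of the filter and describe these values only. The change against healthy control did not pass without RYGB replicate 6 (0.0636) or healthy control replicate 3 (0.0508). Alas2, the erythroid enzyme that starts haem synthesis, had 371.4 to 951.7 reads in RYGB, 32.25 to 234 in disease and 2.453 to 282.6 in healthy control, with no RYGB library inside the other groups. It rose against healthy control (2.98 ± 0.79, limma adjusted p = 0.0374), and against disease had 2.28 ± 0.79 (0.108). Alas2 did not pass against healthy control without RYGB replicates 1, 2, 4, 5 or 6 or healthy control replicates 2, 3 or 6 (0.0519 to 0.0873), and had 2.10 without healthy control replicate 4 (0.0146), whose own value was 2.453. Against disease it passed with edgeR (0.0322), with DESeq2 (0.0245), with a pseudocount of 10 (0.047), with the compared groups fitted alone (0.0143) and without healthy control replicate 4 (0.0102). The 6 markers summed to 6867 to 12015 in RYGB, 5629 to 11499 in disease and 5648 to 9810 in healthy control, mostly Slc4a1, which acid-secreting intercalated cells also express, and none was at 0 in a whole group. Their part in the Tfrc values was not tested.

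Cell cycle genes went the other way from Tfrc. Of 10 tested, 7 fell in RYGB against disease and 4 against healthy control, and none rose in either. The lowest adjusted p in both comparisons were those of the spindle protein Tpx2 (-1.48 ± 0.22 against disease, limma adjusted p = 0.000779, and -1.11 ± 0.22 against healthy control, 0.00735) and of Birc5, or survivin (-1.73 ± 0.27, 0.0012, and -1.22 ± 0.27, 0.0172, the second not without healthy control replicate 1, 0.0537). Cdk1, the kinase that starts mitosis, fell against disease (-1.42 ± 0.25, 0.00318). The proliferation marker Mki67 had 52.82 ± 14.7 normalised reads in RYGB, 177.4 ± 62.9 in disease and 142.4 ± 54.8 in healthy control. Healthy control replicate 4, with 39.25, lay within the RYGB range. Mki67 fell against disease (-1.70 ± 0.32, 0.00444) and against healthy control (-1.31 ± 0.32, 0.0274), the second not without RYGB replicates 1, 2 or 6 or healthy control replicates 1, 2, 3, 5 or 6 (0.0537 to 0.0811). The part of dividing cells in the Tfrc values was not tested.

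**Figure D3:**
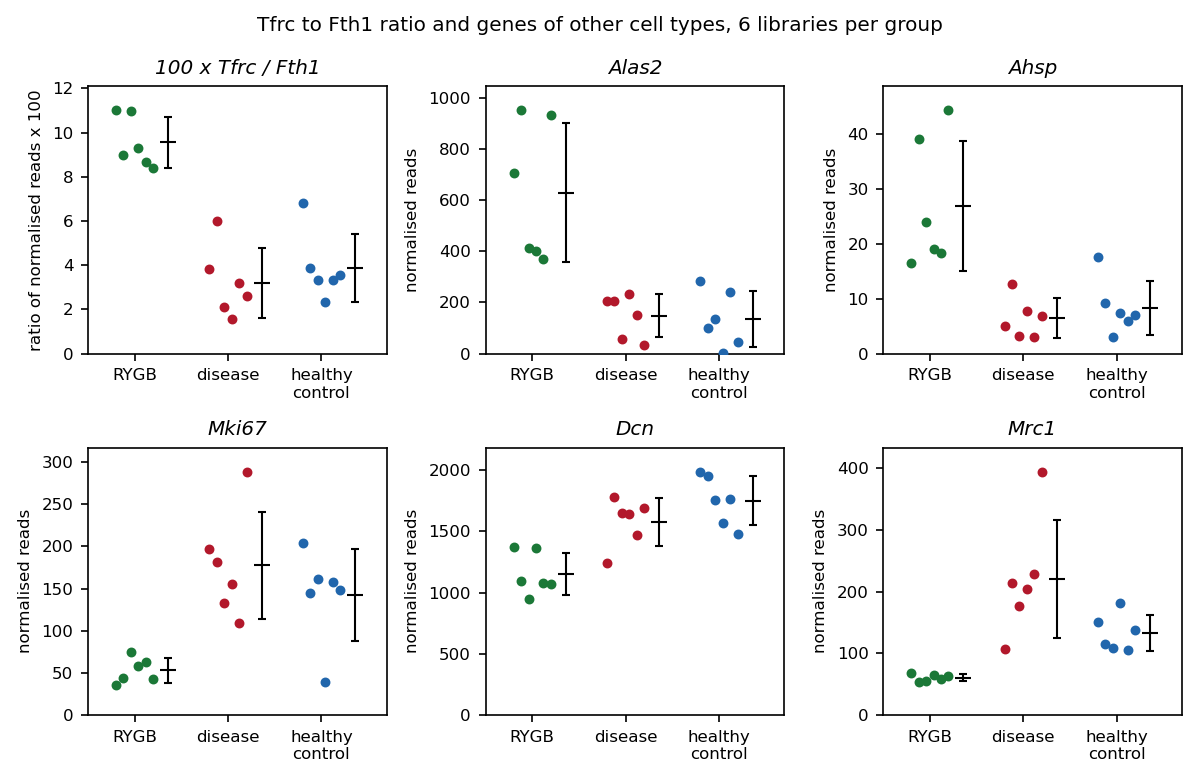
Tfrc reads per 100 Fth1 reads, and normalised reads of the erythroid genes Alas2 and Ahsp, the proliferation gene Mki67, the fibroblast gene Dcn and the macrophage gene Mrc1, per library (points) with mean ± SD (bars), all axes linear from 0. The ratio, Alas2 and Ahsp are high in RYGB, while Mki67, Dcn and Mrc1 are low.

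Of 84 other genes of iron and haem handling 74 matched the table and 71 were tested. In RYGB against disease 2 rose and 3 fell (7.04%, against 3.95% of all genes), in RYGB against healthy control 2 rose and 0 fell (2.82%, against 4.44%), and in disease against healthy control 0 passed. The median log2 fold change of the 71 was 0.12, 0.16 and 0.03 in the 3 comparisons in that order. The share that passed was thus above that of all genes against disease and below it against healthy control, though both rest on few genes. Those called against disease all lay among carriers, uptake genes and ferrireductases and in the hepcidin axis.

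Among 12 tested carriers, uptake genes and ferrireductases, Slc22a17, the receptor for the iron-carrying lipocalin, rose against disease (798.6 ± 183 in RYGB, 475.6 ± 156 in disease; 0.78 ± 0.22, limma adjusted p = 0.0497). The metalloreductase Steap4 fell (857.4 ± 117 in RYGB, 1231 ± 246 in disease; -0.51 ± 0.14, 0.0408). Slc22a17 did not pass without RYGB replicates 1, 2, 4, 5 or 6, disease replicates 1, 2, 4 or 6 or healthy control replicates 2, 3, 5 or 6, nor under 4 other alternatives (0.0547 to 0.108). Steap4 did not pass without the same libraries other than RYGB replicate 1, nor with the compared groups fitted alone (0.051 to 0.106). Transferrin Tf did not pass, with 1855 ± 440 normalised reads in RYGB, 1479 ± 117 in disease and 1651 ± 262 in healthy control. Tfr2, the second transferrin receptor, had 20.15 ± 8.15 reads in RYGB, 7.174 ± 5.01 in disease and 11.1 ± 4.66 in healthy control (1.71 ± 0.51 against disease, limma adjusted p = 0.0609).

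Of 8 tested genes of the hepcidin axis, which sets systemic iron export, 1 rose and 2 fell against disease and none passed in the other comparisons; Hamp is not analysed here. Id1, a target of bone morphogenetic protein signalling, rose (1234 ± 414 in RYGB, 584.1 ± 192 in disease; 1.07 ± 0.26, limma adjusted p = 0.027). Bmp6, the ligand that reports iron stores to hepatocytes, fell without overlap (391.8 ± 31.9 in RYGB, 541.6 ± 51.2 in disease; -0.46 ± 0.12, 0.0309). Hemojuvelin, listed under its older symbol Hfe2, fell as well (216.7 ± 59.5 in RYGB, 422.5 ± 87.3 in disease; -0.98 ± 0.24, 0.0287). Its healthy control mean was 229.3 ± 97.5. All 3 lost the call without RYGB replicates 1 or 6 or disease replicates 1 or 2. So did Id1 without RYGB replicate 4 or disease replicate 6, Bmp6 without RYGB replicates 4 or 5 and Hfe2 without RYGB replicate 5 (adjusted p 0.0527 to 0.0774 for the 3).

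Haem breakdown and transport genes other than Hmox1 did not pass, 0 of 14 in each comparison. The constitutive haem oxygenase Hmox2 had 2871 ± 359 normalised reads in RYGB, 2783 ± 485 in disease and 2695 ± 276 in healthy control. Its 95% interval ran from -0.19 to 0.30 for RYGB against disease. The biliverdin reductases Blvra and Blvrb, which make bilirubin from the product of haem oxygenase, also did not pass. Blvra averaged 1549 ± 353 in RYGB, 1275 ± 179 in disease and 1673 ± 655 in healthy control, while all 6 RYGB libraries of Blvrb lay above healthy control (729 ± 51.6 against 551.4 ± 89.7; 0.42 ± 0.13, limma adjusted p = 0.0639). The haem scavenger Hpx, the haemoglobin scavenger Hp and the haemoglobin receptor Cd163 were low in all groups, with means of 7.842 to 21.79 in RYGB, 8.898 to 17.69 in disease and 8.682 to 9.541 in healthy control. In haem synthesis 1 of 13 passed, Alas2 in RYGB against healthy control, and Alas1 is not analysed here. All 13 had a positive log2 fold change in both RYGB comparisons (median 0.18 against disease and 0.27 against healthy control). In disease against healthy control 11 were positive (median 0.10).

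Of 6 tested genes of iron storage, chaperoning and regulator turnover, 1 passed: the cluster assembly factor Nubp1 rose against healthy control (1254 ± 197 in RYGB, 903 ± 120 in healthy control; 0.47 ± 0.13, limma adjusted p = 0.0426). It did not pass without RYGB replicates 1, 2, 4, 5 or 6 or healthy control replicates 1, 2, 3, 5 or 6, nor with the replicate block (0.0542 to 0.112). Ncoa4, which delivers ferritin to lysosomes, did not pass, with 5447 ± 1037 in RYGB, 6192 ± 1157 in disease and 6173 ± 364 in healthy control. None of 14 tested genes of mitochondrial iron and iron-sulphur clusters and none of 4 tested copper supply genes passed in any comparison.

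**Figure D4:**
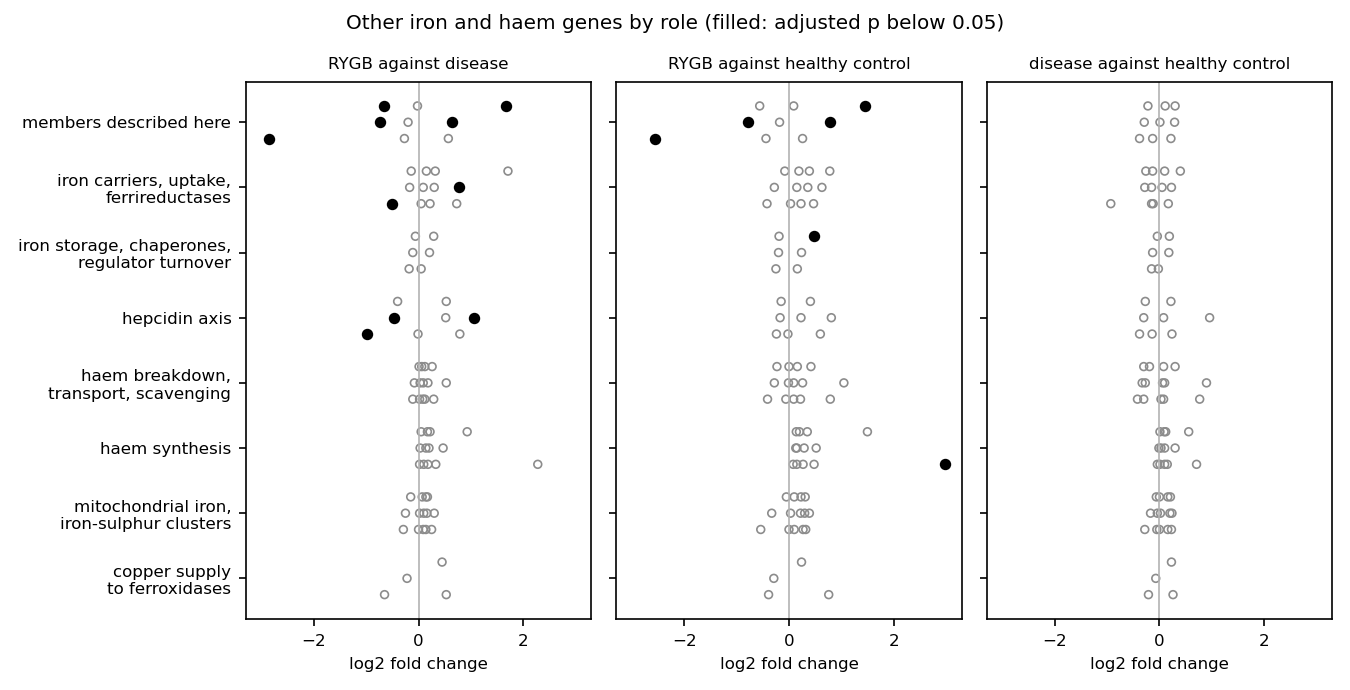
Log2 fold changes (horizontal axis) of the 9 genes and of 71 other iron and haem genes by role, 1 point per gene, in the 3 comparisons; filled points have an adjusted p below 0.05. Filled points number 5 and 4 among the 9 genes in the RYGB comparisons, 5 and 2 among the other 71, and 0 in disease against healthy control. Of all genes tested 3.95%, 4.44% and 1.61% passed in these comparisons. The 9 genes and the lists were chosen with earlier results of these data known, so the counts do not test one set against the other.

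Lists for oxygen sensing and oxidative stress, which also touch Tfrc and Hmox1, had mixed members. Of 12 tested hypoxia-induced genes 1 rose in RYGB against disease, the glucose transporter Slc2a1 (0.69 ± 0.19, limma adjusted p = 0.0424), and 1 against healthy control, the lactate dehydrogenase Ldha (0.35 ± 0.09, 0.0357). Of 10 tested NRF2 targets Osgin1 rose (1.68 ± 0.46, 0.0441) and the malic enzyme Me1 fell (-0.53 ± 0.14, 0.0424) against disease, and Me1 fell against healthy control (-1.37 ± 0.14, 0.000111). In disease against healthy control 3 fell, among them Gclc and Gclm, the subunits of the enzyme that limits glutathione synthesis (-2.60 ± 0.49 and -1.11 ± 0.28, limma adjusted p = 0.00685 and 0.0449), and Me1 (-0.84 ± 0.14, 0.00376). The calls of Slc2a1, Ldha, Osgin1, Gclm and, against disease, Me1 were not stable: each was lost in 12 to 15 alternatives, most of them with a single library left out (adjusted p up to 0.134). Over these genes together, the RYGB and disease libraries concerned were replicates 1 to 6 of each group. The healthy control libraries were replicates 1, 2, 3, 5 and 6. Each gene lost its call without only some of these libraries.

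The genes nearest in pattern to the called members other than Heph were found by the root mean square difference between profiles over the 18 libraries, each centred and scaled to unit SD, where 0 is an identical profile. For Tfrc they were the lipoxygenase Alox15 (0.564), Ahsp (0.575) and Klk4 (0.608), against a median of 1.37 over all genes. Ahsp was among the genes searched only because its RYGB values met the filter. Alox15 averaged 1403 normalised reads in RYGB, 72.78 in disease and 42.65 in healthy control. For Hmox1 they were Fam111a, Tm6sf1 and Akr1c14 (0.576 to 0.604), no nearer than those of Tfrc. Aco1 lay nearer to its neighbours Retsat, Cpn1 and Tmed4 (0.322 to 0.358). Slc11a2 was nearest to Tm9sf1, Spata2L and Paqr9 (0.387 to 0.48) and Cp to Adamts1, Mgea5 and Eri1 (0.417 to 0.473). Part of such likeness comes from the group means that the genes share.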

How the data were processed

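Messenger RNA of 18 kidney cortex samples in 3 groups of 6 was sequenced from stranded libraries of polyadenylated RNA, per the labels' protocols. Deposited for each gene was a normalised signal, the read counts that the authors divided by 1 size factor per library, per the file headers and names. FastQC 0.11.2, MultiQC 0.9, HTSeq 0.6.1p1, DESeq2 and the build Rnor 5.0 are named in the submitters' processing notes. Which aligner was used is not given in these sources. Reads that matched no gene row, several places or several genes (27.62 to 43.17%, 13.46 to 18.13% and 0.06949 to 0.1137% of counted reads) were left out. Dividing each library by its smallest step returned whole reads (within 0.01 reads for 99.9674% or more of the values in each library).

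Tests were made in R 4.3.3 by limma 3.58.1, with its trend option, on log2(value + 1), so fold changes of low genes are understated. The 3 groups were fitted together, which leaves 15 residual degrees of freedom, for the 13988 genes with at least 10 in at least 6 libraries. The p-values are two-sided and Benjamini-Hochberg adjusted over all genes within a comparison, and a gene passed below 0.05. Alternatives were edgeR 4.0.16 and DESeq2 1.42.0 on the recovered reads, other pseudocounts, filters and scalings, the compared groups alone, a replicate block and each library left out. Exact permutation tests used SciPy 1.17.1.

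Of 251 listed symbols 210 were matched, 2 under another symbol; lists of other genes and markers were written for this report. The members and lists were chosen with earlier results of these data known. Named were all members, up to 3 called genes per list and comparison, some iron and haem genes whatever they did, and the 3 nearest genes in pattern of each called member (those of Heph are not reported here); Dcn, Mrc1, Lyz2, Ahsp, Miox and the injury markers were named from their marker lists after their values were seen. Same-numbered libraries of disease and healthy control tended to deviate together from their group means (correlations 0.131 to 0.325, all 6 over 0.1). In 3 of 6 cases, however, a library with another number correlated more (0.301 to 0.389). The labels give no pairing, and whether these numbers are pairs cannot be told from such correlations. The main fit treated all libraries as unpaired, and a replicate block was among the alternatives. Same-numbered RYGB libraries mostly had negative correlations with the other groups. No 2 libraries of a group agreed within sampling noise.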

Additional observations from a re-analysis of the deposited data

Results flagged for a closer look

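Of 27 sets of 6 libraries (9 genes in 3 groups), 2 held a library far from the others, where chance flags about 1 in 20. Healthy control replicate 1 had 2605 normalised reads of Hmox1, and the next highest of its group had 337. Disease replicate 6 had 12468 normalised reads of Ftl1, and the next lowest of its group had 21289. Reads that matched no gene row were most frequent in healthy control replicate 1 (43.17%) and disease replicates 1 and 2 (39.7% and 38.62%), with at most 34.36% elsewhere. These libraries had the highest Tfrc outside RYGB (3110, 2686 and 3227). Hmox1 was high in disease replicate 2 (1558), but also in disease replicate 4 (2332), where that share was 30.02%. The part of this share in the values was not tested.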

How the results depend on the processing

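Against disease 4 to 5 and against healthy control 3 to 5 of the 9 genes passed under other pseudocounts, filters, scalings, tools, separate fits or the replicate block, and 0 of 9 for disease against healthy control. Leaving out 1 library gave 1 to 5 of 9 for RYGB against disease and 2 to 5 for RYGB against healthy control. Over all genes it gave 261 to 819 and 209 to 1506 calls in these comparisons, and 126 to 312 for disease against healthy control, where 552, 621 and 225 were called with all libraries. DESeq2 called 1098, 1602 and 410, a minimum of 50 left 143 for disease against healthy control, and the groups fitted alone gave 1442 for RYGB against healthy control; the cause was not tested. No fold change of a called gene changed sign. With the replicate block 408, 496 and 158 genes were called, and of the 9 genes 4, 3 and 0: Slc11a2 against disease (adjusted p = 0.0552) and Hmox1 against healthy control (0.0517) did not pass. The block within disease and healthy control alone called 252 genes and 0 of 9. Same-numbered RYGB libraries had correlations of -0.557 to 0.309 with disease and -0.31 to 0.0141 with healthy control. What the replicate numbers share is not given in the labels. Without adjustment, exact two-sided permutation tests (smallest p possible 0.00216, 27 tests) also gave p = 0.026 for Aco1 against disease and p = 0.0195 and 0.0368 for Ireb2 and Cp against healthy control. The effect of near-identical copies on the counts of Fth1 and Ftl1 was not tested.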
